A study of Mus musculus with 2 samples.

Results

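Insulin-like growth factor 1 (Igf1), its receptor Igf1r, the docking proteins Irs1 and Irs2 and the Igf binding proteins Igfbp2 to Igfbp7 were compared between 2 mouse epithelial cell lines. Members were taken as all probe sets, groups of short probes that report 1 transcript, whose single gene symbol in the platform annotation is one of these 10 genes. They gave 26 probe sets for 10 genes, of 34945 probe sets for 18193 genes with a single symbol on the array. The lines are named Mle29c and Mlesico, and Mle29c is set against Mlesico throughout. Per the labels, both were grown in DMEM with 10% FBS, neither received a treatment, and the RNA of each was hybridised to 1 array. The subject of the series is miR-29c and fibrosis of the lung, but the labels do not say whether Mle29c cells carry more or less miR-29c, how either line was made, or whether a line is 1 clone.

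Each line has 1 array, which leaves neither a replicate spread nor a test, and the number of arrays limits the precision of every value. Results are log2 ratios of Mle29c over Mlesico, 2-fold is a rule of size (a log2 ratio of 1 or -1), and no value carries a p-value. The deposited values are centred on the midpoint of both arrays, so that the values of a probe set mirror each other and the transcript's level is lost. A level class was read from the rounding of the numbers instead. It was meant as high (mean log2 level of 8 or more), middle (4 to 8) or low (below 4). From above, a middle or low class limits only the dimmer array, to below 8 or below 4. A probe set with a wide ratio may thus stand in a class below that of its mean level. From below, a middle class puts the mean log2 level at 4 or more where both deposited values did not cancel exactly. Where both deposited values cancelled exactly, the class gives only the highest level the rounding allows, so a dimmer probe set may stand in the high class. Of low-class probe sets, 56.4% differed by 2-fold or more between the arrays, against 11.7% of high-class and 22.8% of middle-class ones, and the low class was not counted as measured. These shares are partly fixed by the class rule, since a wide ratio makes 1 array dimmer, and are no separate measure of noise. A gene's value is the median over its measured probe sets. Across 14780 measured genes the median log2 ratio was 0.0051, and the pooled SD of log2 ratios among the probe sets of 1 gene was 0.62 (6844 genes). That SD is a technical spread within the 2 arrays, not a replicate error.

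Igf1 is a secreted growth factor that binds the receptor tyrosine kinase Igf1r. The active receptor recruits the docking proteins Irs1 and Irs2, which pass the signal to PI3 kinase and Akt and favour growth and survival. Binding proteins hold Igf1 outside the cell and can restrain or prolong its action, and in lung Igf1 comes largely from mesenchymal cells and macrophages. MicroRNAs of the miR-29 family pair through their seed with messenger RNAs and lower them, and Igf1 has been reported as a miR-29 target. The family is shown here because the name of the Mle29c line holds 29c and the series is about miR-29c.

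In RefSeq, build GRCm38.p6, the mature sequences read as follows, 5′ to 3′, with the seed (bases 2 to 8) in capitals.
mmu-miR-29c-3p: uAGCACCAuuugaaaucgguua
mmu-miR-29a-3p: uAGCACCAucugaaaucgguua
mmu-miR-29b-3p: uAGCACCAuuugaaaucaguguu
All 3 share the seed, whose perfect complement in a messenger RNA is UGGUGCU. Counted from 1 at the 5′ end of miR-29c-3p, miR-29a-3p differs by U10C, and miR-29b-3p differs by G18A, U21G and A22U over 22 bases and is 23 bases long. The gene Mir29c lies at chr1:195037547-195037634 on the plus strand, inside the interval of the noncoding RNA gene A330023F24Rik. Its hairpin is shown to place the mature arm, in capitals.
mir-29c hairpin: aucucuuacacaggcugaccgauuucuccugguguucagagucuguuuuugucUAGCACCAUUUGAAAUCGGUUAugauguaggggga
The array did not measure mature miR-29c. The single probe set of A330023F24Rik had a log2 ratio of 1.64, but it was in the low class, so whether this transcript differed between the lines was not settled by it. The 3′ untranslated regions of the members were not analysed here.

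Igf1, the ligand, was lower in Mle29c cells in all 4 of its probe sets, with a gene value of -3.86, while the gene values of the receptor, the docking proteins and the measured binding proteins lay between -0.82 and 1.35. Single measured probe sets of those other members lay between -0.82 and 2.48. Probe set 1419519_at stood at -1.93 in Mle29c and 1.93 in Mlesico, a log2 ratio of -3.86. Probe set 1437401_at stood at -2.72 in Mle29c and 2.72 in Mlesico, a log2 ratio of -5.43. Probe set 1452014_a_at stood at -1.28 in Mle29c and 1.28 in Mlesico, a log2 ratio of -2.57. These 3 were in the middle class, and the Mle29c array was the lower one in each. The fourth, 1434413_at, had the widest gap, with -3.79 in Mle29c and 3.79 in Mlesico (log2 ratio -7.59), but its class was low. That class places only the Mle29c array below a log2 level of 4 and leaves the Mlesico level unknown.

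The gene value of Igf1 was -3.86, which is 14.5-fold lower in Mle29c. The SD between its 3 measured probe sets was 1.44, wider than the pooled SD of 0.62, so the direction was shared and the size was not. Of the 14780 measured genes, 73 (0.494%) had a lower log2 ratio. That rank leaves out the low class, where 27% of probe sets were at least 2-fold lower, against 7.38% of measured ones. Every measured probe set at least 2-fold lower was seen in 23 of the 3117 genes with 3 or more measured probe sets (0.738%), Igf1 among them. Over probe sets of any class, 13 of 1949 genes with 4 or more (0.667%) had all of them at least 2-fold lower, again with Igf1 included.

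The rounding also bounds the Igf1 signal. Because both values of each middle-class Igf1 probe set did not cancel exactly, their mean log2 level was at least 4 and the dimmer array, Mle29c, lay below a log2 level of 8, a signal of 256. Adding the centred values puts the Mlesico signal at 60.9 or more for 1419519_at, 105 or more for 1437401_at and 39.0 or more for 1452014_a_at. These bounds assume that base 2 logarithms of the signals were centred in single precision. The Mlesico signal of these 3 probe sets was thus above 16, the lower edge of the middle class, but how far the Mle29c signal lay above background is unknown. Sizes of the Igf1 ratios are therefore less firm than their direction. Igf1os, the gene annotated as the antisense partner of Igf1, had 1 probe set in the low class, at a log2 ratio of -1.48.

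**Figure D1:**
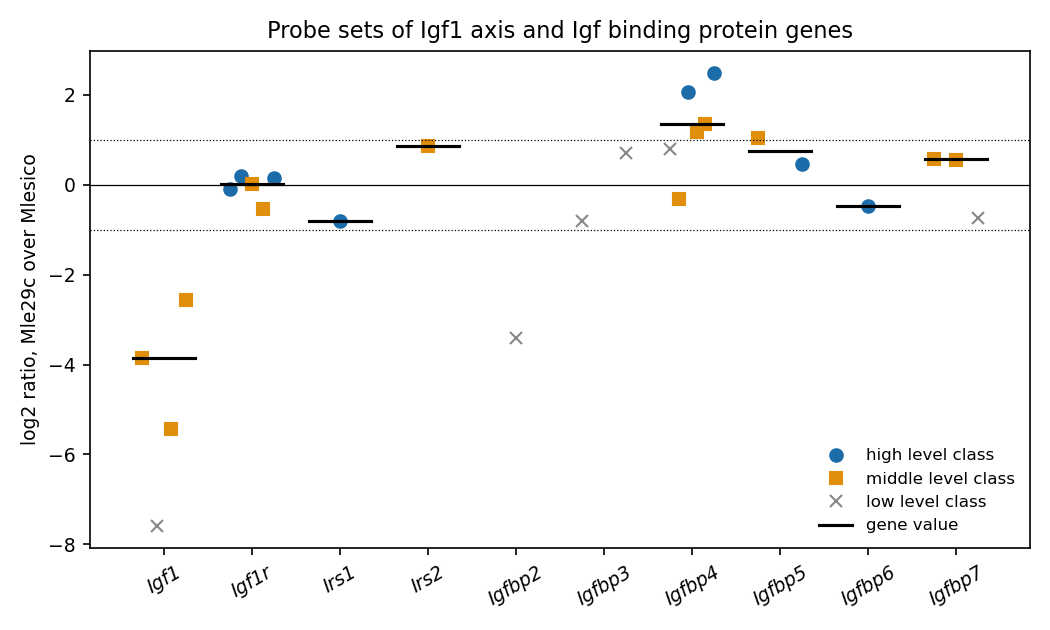
Log2 ratio of Mle29c over Mlesico (vertical axis) for each probe set of the 10 genes (horizontal axis), marked by level class, with the gene value over measured probe sets as a black bar and dotted lines at 2-fold. All 4 Igf1 probe sets lie below -2.5, Igf1r stays near 0, and Igfbp2 and Igfbp3 have low-class probe sets alone.

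Igf1r, the receptor tyrosine kinase for Igf1, was close to equal in the lines, with a gene value of 0.03 over 5 probe sets. Its high-class probe sets 1426565_at, 1428967_at and 1452982_at had log2 ratios of -0.09, 0.19 and 0.15. The middle-class 1446303_at was at 0.03 and 1452108_at at -0.53. The 5 probe sets came from 3 source sequences, so they were not 5 separate measures, and their SD of 0.29 was below the pooled SD. None reached 2-fold. The log2 ratio of Igf1 minus that of Igf1r was -3.88.

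The docking proteins went opposite ways, each from 1 probe set and within 2-fold. Irs1, the substrate that links the receptor to PI3 kinase in many tissues, stood at -0.41 in Mle29c and 0.41 in Mlesico, a log2 ratio of -0.82. Irs2, its paralogue, stood at 0.43 in Mle29c and -0.43 in Mlesico, a log2 ratio of 0.85. A single probe set gives no check on either size.

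**Figure D2:**
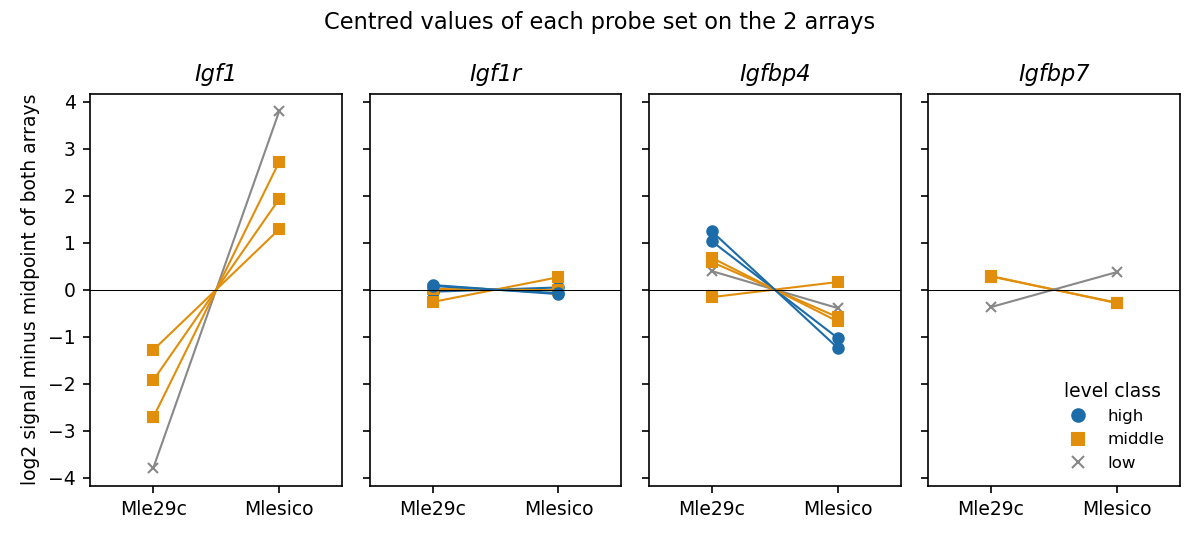
Log2 signal minus the midpoint of both arrays (vertical axis) on the Mle29c array, left, and the Mlesico array, right, for each probe set of Igf1, Igf1r, Igfbp4 and Igfbp7, 1 line per probe set and coloured by level class. Igf1 points reach -3.79 on the Mle29c array and 3.79 on the Mlesico array, Igf1r lines are nearly flat, and 5 of 6 Igfbp4 lines are higher in Mle29c.

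Of the 6 binding proteins, 4 were measured, with a median log2 ratio of 0.66 and a range of -0.47 to 1.35. Igfbp4, which binds Igf1 until the protease Pappa cuts it, was the one member at least 2-fold higher in Mle29c, with a gene value of 1.35 (2.55-fold). Its measured probe sets were 1437406_x_at at 2.48, 1423756_s_at at 2.06, 1437405_a_at at 1.35, 1423757_x_at at 1.17 and 1421992_a_at at -0.32. The low-class 1421991_a_at was at 0.79. Thus 4 of 6 were past 2-fold, all higher, and 1 lay on the other side of 0. The 6 probe sets came from 3 source sequences, and the SD between the 5 measured ones was 1.07. All 6 carry a suffix for probes that may match several transcripts, so no value remained when such probe sets were left out.

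Igfbp5, a binding protein that attaches to extracellular matrix, had log2 ratios of 1.04 in 1422313_a_at and 0.46 in 1452114_s_at, and a gene value of 0.75. Both probe sets were higher in Mle29c, and the median fell short of 2-fold. Both also carry a suffix for probes that may match several transcripts, so Igfbp5 too had no value when such probe sets were left out. Igfbp7, a secreted relative that binds Igfs weakly, had 0.58 in 1423584_at and 0.56 in 1423585_at, with a gene value of 0.57. Its remaining probe set, 1437804_at, was in the low class and stood at -0.74. Igfbp6, which prefers Igf2 over Igf1, was lower in Mle29c, at a log2 ratio of -0.47 from 1 high-class probe set.

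Igfbp2 and Igfbp3 were not measured, since all their probe sets were in the low class. Igfbp2, a binding protein abundant in fetal tissues, stood at -1.71 in Mle29c and 1.71 in Mlesico in its single probe set, a log2 ratio of -3.42. Its low class limits only the Mle29c array, to below a log2 level of 4. Among low-class probe sets of all genes, 27% were at least 2-fold lower in Mle29c. Igfbp3, the main carrier of Igf1 in blood, had opposite values in its 2 probe sets, at -0.79 and 0.72.

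Among the 8 measured members, 1 gene was at least 2-fold lower in Mle29c, against 7.25% of all measured genes, and 1 was at least 2-fold higher, against 8.46%. The remaining 6 were within 2-fold, and the median of the 8 was 0.30. Over 8 genes, shares this near the background are no result about the group. By probe set, 5 of the 20 measured ones were at least 2-fold higher, 4 of Igfbp4 and 1 of Igfbp5, against 7.99% of all measured probe sets. The 3 of Igf1 were at least 2-fold lower, against 7.38%. Probe sets of 1 gene share their transcript and are not separate observations of the lines. Igf1 stood 4.42 below the median of the other 7 measured members (0.57) and 4.52 below that of the measured binding proteins. In ascending order of log2 ratio the members ran Igf1, Irs1, Igfbp6, Igf1r, Igfbp7, Igfbp5, Irs2 and Igfbp4. Neighbours from Irs1 to Igfbp4 were at most 0.54 apart, and Igf1 lay 3.04 below Irs1. Neighbours in a sorted list lie close by construction. The measured probe sets of Igf1 had an SD of 1.44 and Irs1 had 1 probe set, so the size of that gap is not firm.

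**Figure D3:**
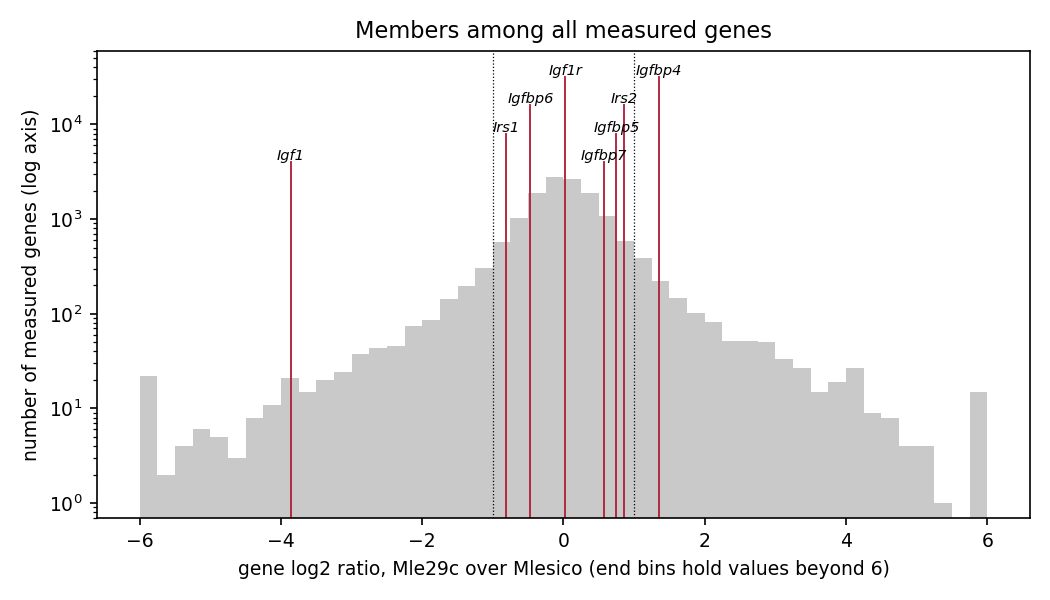
Number of measured genes (vertical, log axis) by gene log2 ratio of Mle29c over Mlesico (horizontal axis, bins of 0.25, end bins holding values beyond 6), with a line for each of the 8 measured members and dotted lines at 2-fold. Igf1 at -3.86 lies in the lower tail, with 0.494% of genes below it, and the other 7 members lie between -0.82 and 1.35.

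With 2 arrays the log2 ratio is the whole pattern of a gene. Among 6844 genes with 2 or more measured probe sets, those next to Igf1 were Ptprd (-3.98) and Slc15a2 (-3.95) on the lower side and Prxl2a (-3.78) and Vegfc (-3.75) on the higher side. Vegfc, a lymphatic growth factor, had both probe sets low, at -3.99 and -3.52, as did Prxl2a, at -4.30 and -3.27. Ptprd, a receptor phosphatase, and Slc15a2, a peptide transporter, each held 1 probe set above 0, up to 0.31 and 0.09.

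The wider Igf system was followed in 5 gene lists. Of 80 listed genes, 72 had a probe set with a single symbol and 65 were measured, and the other 8 were not analysed here. At least 2-fold higher in Mle29c were 9 of the 65 genes, against 8.46% of all measured genes, and 4 were at least 2-fold lower, against 7.25%. The median of the 65 was 0.10, beside 0.0051 over all measured genes. The count of lower genes was near the background, and the lists are too short for their single counts to be read against it.

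Of the other ligands, receptors and docking proteins, 7 of 10 were measured, with 2 at least 2-fold higher (8.46% of all measured genes), 1 at least 2-fold lower (7.25%) and a median of 0.68. Igf2, the second ligand, was lower in Mle29c in both probe sets, at -1.13 in the high class and -3.53 in the low class. Igf2r, which clears Igf2 to lysosomes, was at -0.67 over 2 probe sets, and the insulin receptor gene Insr at 0.06 over 3. Igfals, the third subunit of the Igf complex in blood, was at 1.06 and the docking protein gene Irs4 at 1.22, each from 1 measured probe set. Both Igf ligands were thus lower in Mle29c, while Igf1r and Insr were within 0.1 of 0. Igf2 rested on 1 measured probe set, whose class is only the highest level the rounding allows. Ins2, an insulin gene of the same list, was at 0.68 from 1 probe set.

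All 12 proteases of binding proteins and their inhibitors were measured, with 2 at least 2-fold higher (8.46% of all measured genes), 1 at least 2-fold lower (7.25%) and a median of -0.13. Pappa, the protease that cuts Igfbp4, was at 1.78 in its measured probe set and at -3.16 and -1.95 in low-class ones, so its direction was not settled. Stc2, an inhibitor of Pappa, was higher in Mle29c in 3 probe sets, at 0.90, 1.67 and 1.69. Adamts1, a metalloprotease of the matrix, was at -2.11 from 1 probe set.

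Of 40 genes of signalling below the receptor, 33 were measured. At least 2-fold higher were 2 of them (8.46% of all measured genes), and 1 was at least 2-fold lower (7.25%). Within 2-fold were 30, beside 12458 of all 14780 measured genes, and the median was 0.10. Some of these 30 gene values cover probe sets past 2-fold. Their measured probe sets ran from -3.18 in Rictor to 4.31 in Socs2. Foxo1, a transcription factor that Akt keeps out of the nucleus, was at 2.20, with its 3 measured probe sets between 2.11 and 2.25 and a low-class one at -0.41. Akt2, a kinase of the insulin and Igf1 response, was at 1.19, with probe sets from 0.28 to 1.38. Grb10, an adaptor that dampens Igf1r and insulin receptor signalling, was at -1.35, with probe sets from -2.05 to -0.37.

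Of 9 regulators of Igf1 and of growth hormone signalling, 7 were measured, with a median of 0.39. Ghr, the growth hormone receptor gene, was at 1.10, but its measured probe sets stood at 0.34 and 1.87 and a low-class one at -1.66. Igf2bp3, an RNA-binding protein that holds Igf2 messenger RNA, was lower in Mle29c in all 6 probe sets, from -2.05 to -1.03. Of 9 genes for proteins with an Igfbp-like domain 6 were measured, with a median of -0.12. Ccn4, a matricellular protein, was at 1.44, with probe sets at 1.44 and 1.45, and Kazald1 was at 1.58 from 1 probe set.

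**Figure D4:**
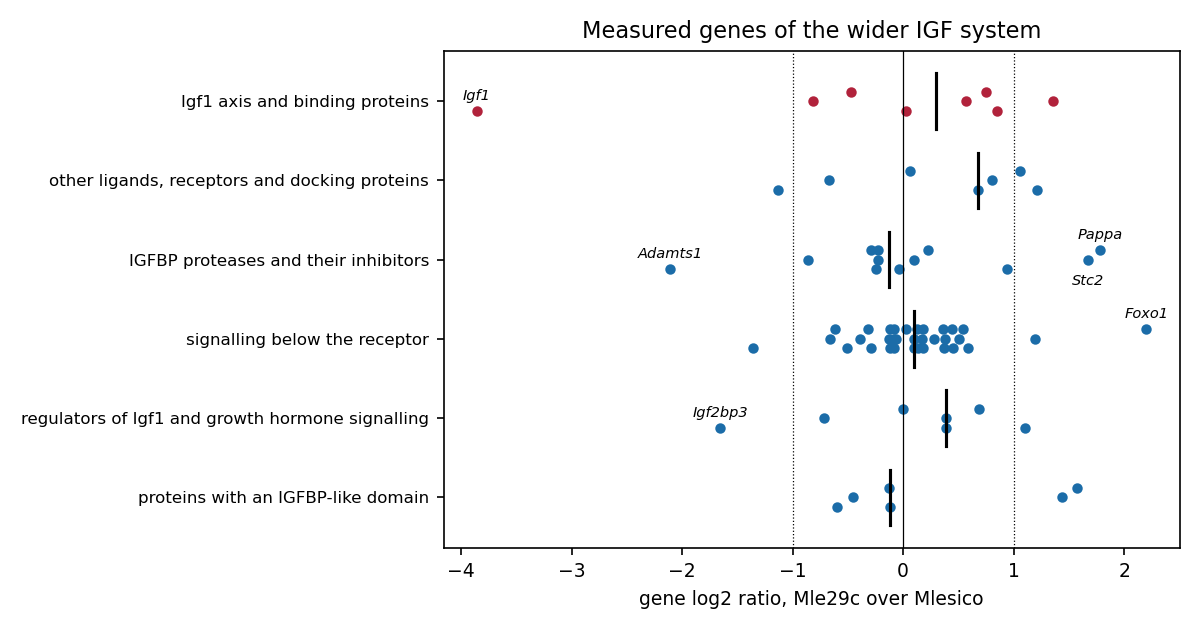
Gene log2 ratio of Mle29c over Mlesico (horizontal axis) for measured genes of the Igf1 axis and binding proteins (top row) and of the 5 wider lists, with the list median as a black bar, dotted lines at 2-fold and names for genes beyond 1.6 on either side. Igf1 at -3.86 is the farthest from 0, followed by Foxo1 at 2.20 and Adamts1 at -2.11.

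The labels call both lines epithelial. Of 13 epithelial markers 11 were measured, from Esrp1 at -4.51 to Cdh1 at 1.46 (median -0.09). Of 10 fibroblast markers 8 were measured, from Col1a1 at -3.41 to Postn at 2.39 (median 0.11). Of 9 macrophage and leukocyte markers 8 were measured, from Cd68 at -0.99 to Marco at 2.88 (median 0.31). Marco rested on 1 measured probe set, with a suffix for shared probes, and its low-class one stood at -1.06. Of 7 endothelial markers 5 were measured, from Tek at -1.57 to Vwf at 1.40 (median 0.05). A high-class probe set was present for 4 of the 13 epithelial, 5 of the 10 fibroblast, 4 of the 9 macrophage and leukocyte and 2 of the 7 endothelial markers. For most of these genes the class is the highest level the rounding allows. It followed from the sum of both values in 1 epithelial marker, the keratin gene Krt8, and 1 fibroblast marker, the matrix proteoglycan gene Dcn, and in 0 of the other lists. The classes therefore do not set the epithelial markers apart from those of the other cell types. Summed levels of these lists cannot be given, since the centring removed them, and the part of other cell types in the Igf1 difference was not tested. In bulk RNA, fewer cells that express a gene and less RNA per cell cannot be told apart.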

How the data were processed

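RNA of the Mle29c and Mlesico lines was measured on 1 array each. The deposited table holds, per probe set, log2 values of both arrays. The submitters' processing notes name MAS5, a method that turns the probes of a probe set into a single signal, with its version not given in the sources used here. Centring was done by the authors, as read from the table: both values of each of 45101 probe sets sum to 0 within 1e-06, and both column medians are 0. The log base is not stated and was taken as 2. A natural log would make every fold larger.

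Ratios are Mle29c minus Mlesico. Level classes came from the sum of both values in single precision or, where it was 0, from the lowest bit in use, and the 161 probe sets at 0 on both arrays were left out. The scripts were tested on simulated data, where a planted log2 ratio had to be recovered. The share of level classes that came out right there is not given here. Probe sets were named from the platform annotation of 2016, with symbols updated by gene number through GRCm38.p6. No column was left unused. Python 3.11.15 with numpy 2.4.6 and pandas 2.3.3 was used.

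The members and lists were chosen with earlier results of these data known. The text names all 10 members, listed genes past 2-fold, Igf2, Igf2r and Insr, the 4 genes nearest to Igf1, and the highest and lowest marker of each cell type. Igf1os, A330023F24Rik, Ins2, Krt8, Dcn, Rictor and Socs2 were added after their values were seen.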

Additional observations from a re-analysis of the deposited data

How the results depend on the processing

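Every alternative that gave Igf1 a value left it lower. With all 4 of its probe sets lower in Mle29c, none of these settings could reverse it, so just its size was open to change. With every probe set kept, and likewise without probe sets whose suffix marks probes that may match several transcripts, its log2 ratio was -4.65. With means, with centring within chromosomes and with classes taken solely from the sum it lay between -3.95 and -3.86. No Igf1 probe set was in the high class, so that setting gave it no value. Igf1 minus the median of the other members lay between -4.67 and -4.42. The setting without such suffixes was not run for that difference. Of 42 recomputed member values 39 moved by less than the pooled SD between probe sets and 40 kept their sign, the exceptions being Igf1r at -0.049 with means and 0 after centring. Many of the 42 could hardly move. A gene with 1 probe set changes under centring alone, and with 2 measured ones the mean equals the median. These counts are therefore no measure of stability. Igfbp4 stood at 2.27 in the high class, from 2 probe sets whose class is only the highest level the rounding allows. The cause of the moves was not tested. That SD was 0.963 with every probe set kept, against 0.62.

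Members at least 2-fold higher in Mle29c numbered 0 without probe sets of such suffixes and at 4-fold. They numbered 2 with the class from the sum, and 3 at 1.5-fold and with values read as natural logs. Members at least 2-fold lower numbered 0 in the high class and 2 with every probe set kept, at 1.5-fold and with natural logs. Genes of the wider lists at least 2-fold higher numbered 4 with the class from the sum, 14 at 1.5-fold and 1 at 4-fold. Those at least 2-fold lower numbered 8 with every probe set kept, 2 with the class from the sum, 10 at 1.5-fold and 1 at 4-fold. Fewer probe sets or another threshold enter by construction. The number of members holding a value was 8 in the main setting and 10 with every probe set kept. It was 5 in the high class, 6 without probe sets of such suffixes and 7 when just the sum set the class. For the wider lists, 65 genes held a value in the main setting, 72 with every probe set and 47 under sum-only classes. No share over all measured genes is given for the alternatives, so their counts cannot be read against a background. The class from the sum and the natural log were chosen after seeing the data. No paired analysis was possible because each line has 1 array. How far a dim signal lay above background is unknown, which limits the sizes.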
